A study of Mus musculus with 6 samples.

Results

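The genes examined here encode the machinery that licenses, fires and runs the DNA replication fork, together with the enzymes that supply its deoxynucleotides. They were taken as a fixed list of 53 gene symbols, from the origin recognition complex to the E2F activators. All 53 were found among the 22105 named genes of the table, and all 53 passed the filter on low counts, which left 12288 genes in the test. The data are read counts from RNA sequencing of 4T1, a mouse mammary carcinoma cell line used as a model of triple-negative breast cancer. Cells received the vehicle DMSO or P3FI-90, an inhibitor of the histone demethylase KDM3B, at 10 µM for 24 h, and each group holds 3 libraries. The comparison asks which genes differ in transcript level after the inhibitor. The labels do not say whether the 3 libraries of a group came from separate cultures, and the p-values then measure only the spread between these libraries.

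Before S phase, the origin recognition complex, CDC6 and CDT1 load the MCM2-7 helicase onto origins as an inactive double ring. Kinases then fire the origin by adding CDC45 and GINS to the ring, and polymerase alpha-primase, delta and epsilon copy the DNA behind the helicase. Ribonucleotide reductase and thymidine kinase supply deoxynucleotides, and many of these genes are transcribed in late G1 and S phase by E2F factors, which makes the family a common readout of proliferation.

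The libraries held between 31327094 and 37395732 counts on named genes. Within a group, libraries differed from each other by a chi-square per gene of 5.44 to 8.43, against 351 to 394 between groups, so no pair of libraries was a copy of another. The epithelial markers fixed for the cell line were detected in all 9 cases, with DMSO means of 2976 to 43318 normalized counts, and all 9 were lower in the P3FI-90 libraries (summed level 161956 to 170802 in DMSO and 70259 to 73664 in P3FI-90). Of the leukocyte markers 3 of 9 passed the filter (summed level 395.7 to 496.6 in DMSO and 403.8 to 512 in P3FI-90), most of it from Cd68. Adgre1 was at 0 in every library, and Csf1r, at 34.4, 62.6 and 27.6 normalized counts in DMSO and 107, 132 and 125 in P3FI-90, was the only one called (higher by 1.56 ± 0.29 on the log2 scale, adjusted p = 2e-04). Of the fibroblast markers 2 of 6 passed (1412 to 1450 and 1001 to 1096), and of the endothelial markers 1 of 4 (0 to 13.3 and 21.6 to 33.7). The part of these differences in the results below was not tested.

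The replication genes split in direction. With edgeR's quasi-likelihood test at an adjusted p under 0.05, 27 of the 53 were higher and 19 lower in P3FI-90, and 7 were not called. Of all 12288 genes 79.3% were called, against 86.8% of the 53. The share called higher was 50.9% of the 53 and 39.9% of all genes, and the share called lower was 35.8% and 39.4%. The groups did not overlap for 45 of the 53 genes (84.9%), against 81.2% of all genes. Falls of more than 1 on the log2 scale were called for 3 of the 53 (5.66%), against 10.6% of all genes, and these were Rrm2, Pold2 and Tk1. No replication gene was called higher by more than 1, against 12.7% of all genes. Changes are given below as log2 fold changes of P3FI-90 over DMSO ± SE, with 3 libraries per group, except where a fold or a percentage of DMSO is named. The median log2 fold change of the 53 was 0.11, and that of all genes was 0.013. Summed over the 53 genes, the libraries held 269217 to 270297 normalized counts in DMSO and 249622 to 254508 in P3FI-90. That direction turned without scaling by composition, since the 53 genes took 0.712 to 0.716% of all counts in DMSO and 0.767 to 0.781% in P3FI-90. In bulk RNA a change in the share of cells in S phase and a change of RNA per cell cannot be told apart. Normalized counts are counts scaled to a common effective library size with TMM factors, which were 0.927 to 0.93 in DMSO and 1.08 in P3FI-90. Without those factors the log2 fold changes of all genes moved up by 0.21 in the median. The calls were then 33 higher and 14 lower, or 29.8% lower of those called, against 41.3% with TMM, and the same share over all genes was 37.1% against 49.7%.

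**Figure D1:**
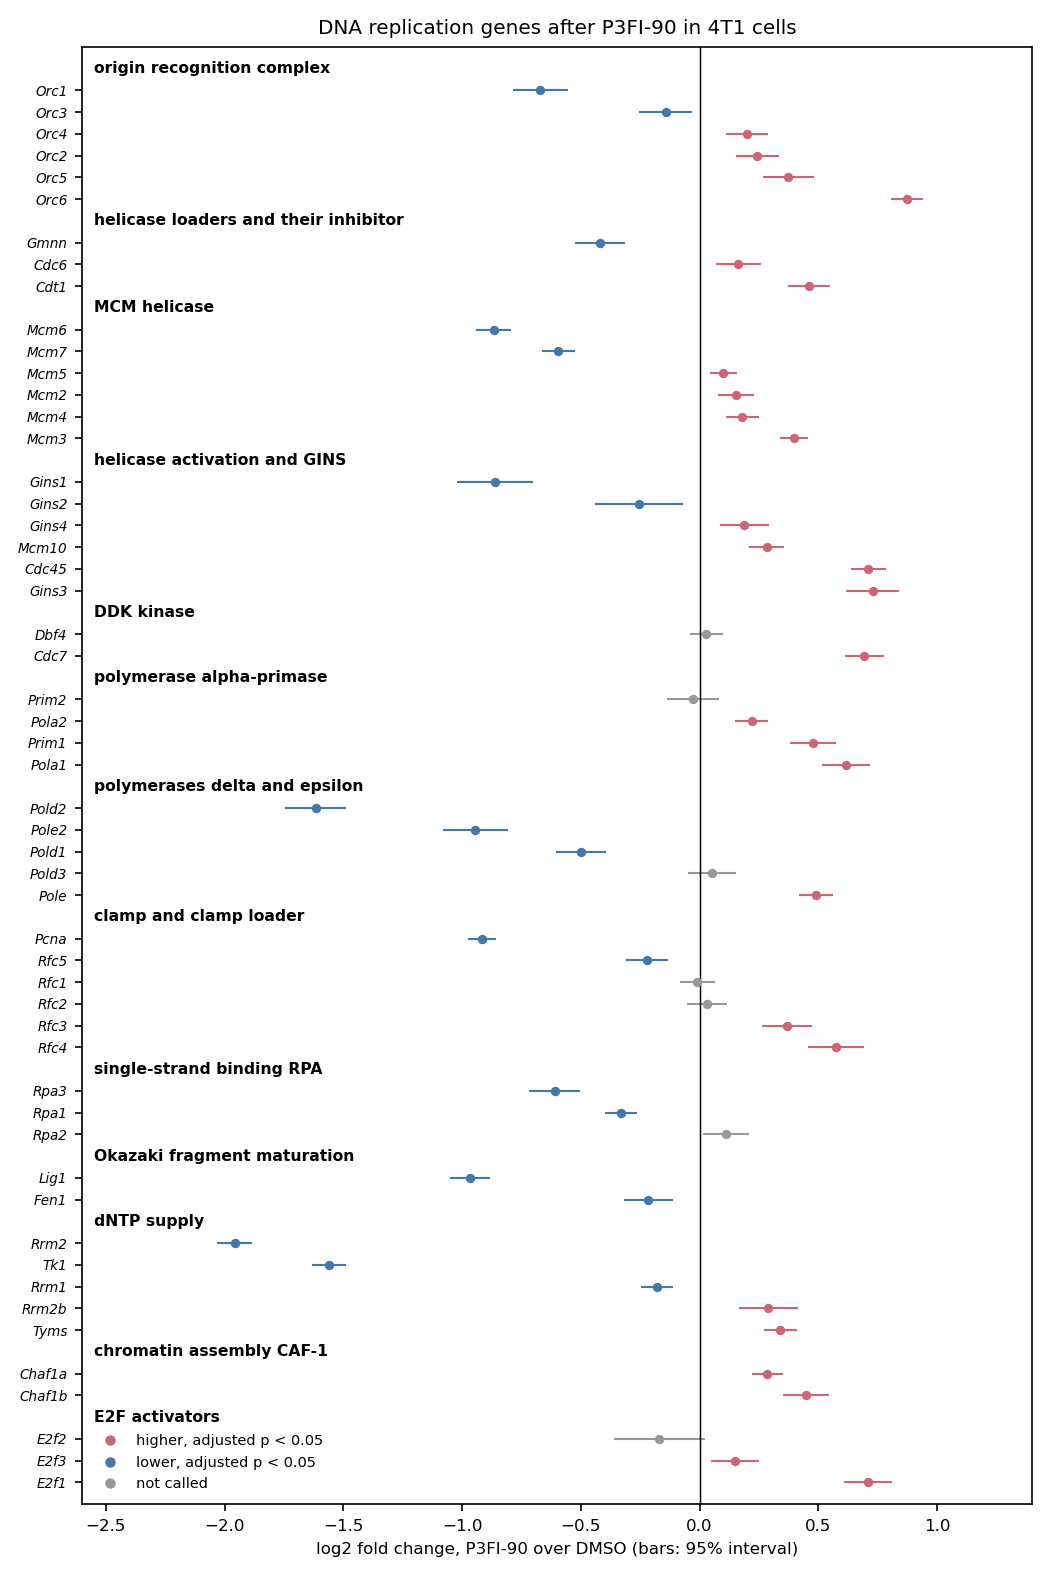
Log2 fold change of P3FI-90 over DMSO for the 53 genes, grouped by role, with bars for the 95% interval and colours for the call at an adjusted p under 0.05. Rrm2, Pold2 and Tk1 lie farthest left, at −1.96, −1.62 and −1.56, and Orc6 farthest right, at 0.87, and most roles hold genes on both sides of 0.

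Promoters were searched because genes of both directions stand in the same E2F-linked family. RefSeq promoter sequences of 250 bases before to 50 after the start, on the build GRCm38.p6, matched 44 of the 53 genes. The counts were made on GRCm39, so the coordinates below belong to the promoter table only. The letters searched on both strands were TTTCCCGC, TTTGGCGC, TTTGCCGC and TTTCGCGC for E2F, TTTGAA and TTCGAA for the CHR element, and CCAAT for the CCAAT box. E2F letters occurred in 17 of the 44 genes (38.6%), in 4.76% of the 9592 tested genes with a promoter, and in 2.6% of the 27025 genes of the whole table. Among genes called lower they were in 7 of 16 (43.8%), among genes called higher in 8 of 23 (34.8%), and among those not called in 2 of 5 (40.0%). CHR letters were found in 11 of 44 genes (25%, against 16.3% of tested genes) and CCAAT in 26 of 44 (59.1%, against 43.5%). These are matches of letters only, and genes without a promoter in the table were not searched.

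Windows of promoters with E2F letters, in capitals, are shown for 3 genes that fell (Mcm6, Mcm7 and Orc1) and 4 that rose (Mcm5, Gins3, Cdc6 and Pola1). They run 5′ to 3′ on the gene's strand:
Mcm6 (chr1:128359725-128359835, minus strand): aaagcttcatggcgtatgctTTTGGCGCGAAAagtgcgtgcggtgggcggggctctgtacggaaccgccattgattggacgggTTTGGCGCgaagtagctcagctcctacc
Mcm7 (chr5:138172009-138172068, minus strand): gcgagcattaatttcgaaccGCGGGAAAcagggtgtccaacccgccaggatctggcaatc
Orc1 (chr4:108579407-108579453, plus strand): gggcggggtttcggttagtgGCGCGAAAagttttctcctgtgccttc
Mcm5 (chr8:75109336-75109395, plus strand): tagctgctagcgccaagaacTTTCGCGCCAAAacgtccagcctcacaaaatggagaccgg
Gins3 (chr8:95633498-95633557, plus strand): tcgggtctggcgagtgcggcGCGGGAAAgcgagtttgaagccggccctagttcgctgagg
Cdc6 (chr11:98907993-98908052, plus strand): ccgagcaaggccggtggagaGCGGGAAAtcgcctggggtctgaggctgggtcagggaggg
Pola1 (chrX:93632254-93632313, minus strand): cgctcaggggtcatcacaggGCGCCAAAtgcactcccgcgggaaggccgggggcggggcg
Mcm5, which rose, and Mcm6, which fell, both hold TTTCGCGC overlapping TTTGGCGC on the opposite strand, and Mcm6 has a further TTTGGCGC downstream. CHR letters also lie in the windows of Mcm7 (TTCGAA), which fell, and of Gins3 (TTTGAA), which rose.

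The E2F letters were not found in the promoters of Rrm2, Tk1 and Pold2, the 3 genes called lower by more than 1, or of Pcna. For Rrm2, Pcna and Pold2 the CCAAT box nearest the start on its 5′ side, read on either strand, is in capitals:
Rrm2 (chr12:24708179-24708238, plus strand): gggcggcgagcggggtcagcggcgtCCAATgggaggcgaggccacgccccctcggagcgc
Pcna (chr2:132253233-132253292, minus strand): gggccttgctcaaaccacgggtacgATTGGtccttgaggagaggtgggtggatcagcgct
Pold2 (chr11:5878269-5878328, minus strand): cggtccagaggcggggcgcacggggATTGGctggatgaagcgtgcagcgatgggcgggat

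**Figure D2:**
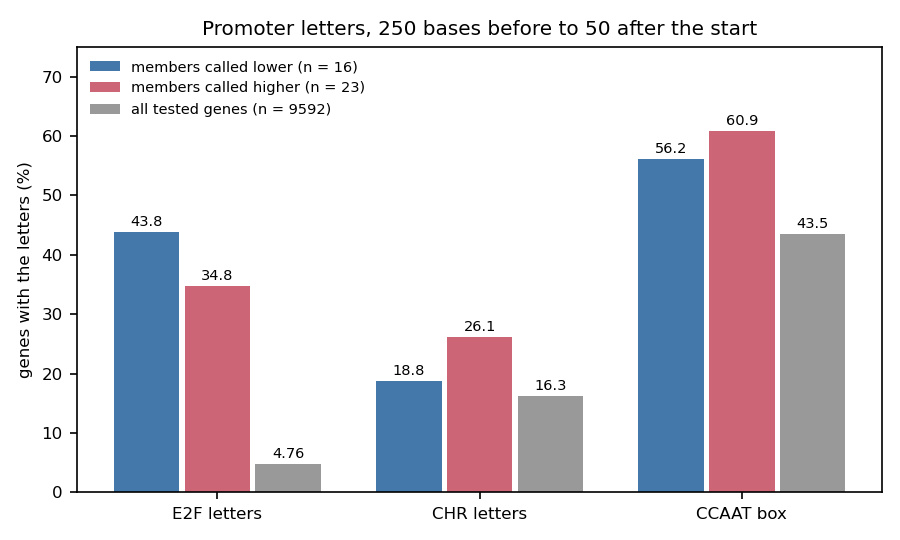
Share of genes (%) whose promoter holds the letters, for replication genes called lower (n = 16) or higher (n = 23) and for all 9592 tested genes with a promoter. E2F letters stand at 43.8% and 34.8% in the groups called lower and higher, against 4.76% in all genes.

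The origin recognition complex, which marks origins, was split: 4 of its 6 genes rose and 2 fell. Orc6, the subunit least tightly bound to the others, read 3336, 3479 and 3327 normalized counts in DMSO and 6205, 6188 and 6185 in P3FI-90. All P3FI-90 libraries lay above all DMSO libraries. It was 1.83-fold higher (log2 fold change 0.87 ± 0.035 SE, n = 3 per group, adjusted p = 2.13e-11), the largest rise of the 53. Orc1, an ATPase subunit of the complex, read 1551, 1655 and 1722 in DMSO and 1058, 1021 and 1018 in P3FI-90. Its groups did not overlap, and the level fell to 62.8% of DMSO (log2 fold change −0.67 ± 0.058, adjusted p = 9.64e-08). Orc5 read 1200, 1228 and 1142 against 1550, 1572 and 1504, again without overlap (0.37 ± 0.055). The log2 ratio of Orc6 to Orc1 went from 1.04 to 2.59. Orc2 and Orc4 rose by 0.24 and 0.20. Orc3 read 2225, 2494 and 2214 against 2160, 2085 and 2033, with log2 fold change −0.14 ± 0.057 and adjusted p = 0.0331. That call was lost without DMSO replicate 2 (adjusted p = 0.125) and without P3FI-90 replicates 2 or 3 (0.0737 and 0.0985), and with at least 10 counts required in every library (0.0524). With total-count scaling Orc3 stood at 0.072, and over the 15 alternatives its adjusted p ran from 0.0101 to 0.258. Orc2 overlaps Nif3l1 on the opposite strand over 29.8% of its exon bases, and Nif3l1 had a log2 fold change of −1.28.

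The loaders moved apart from their inhibitor. Cdt1, which brings the helicase to the origin, read 5671, 5600 and 5725 normalized counts in DMSO and 7492, 8412 and 7482 in P3FI-90. Gmnn encodes geminin, which binds and blocks CDT1, and read 2240, 2264 and 2141 against 1762, 1623 and 1585. Neither gene's groups overlapped, and they moved in opposite directions. Cdt1 rose 1.38-fold (0.46 ± 0.045, adjusted p = 3.11e-07) and Gmnn fell to 74.8% (−0.42 ± 0.054, adjusted p = 6.42e-06). Cdc6, the ATPase that acts with CDT1, read 3066, 2940 and 3125 against 3210, 3569 and 3452 and was higher by 0.16 ± 0.049 (adjusted p = 0.00726). The ratio of Cdt1 to Gmnn rose 1.84-fold. This ratio, that of Orc6 to Orc1 above and the others below were chosen after the values were seen. An exact 2-sided permutation test with 3 libraries against 3 cannot give less than 0.1, which each of the 9 ratios gave.

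The 6 MCM genes encode one hexamer, and 4 of them rose while 2 fell. Mcm6 read 14491, 15297 and 15245 normalized counts in DMSO and 7862, 8449 and 8381 in P3FI-90. Mcm7, which sits beside MCM4 in the ring, read 12408, 11736 and 12533 against 7934, 8315 and 8050. For both genes every P3FI-90 library lay below every DMSO library. Mcm6 fell to 54.8% (−0.87 ± 0.037, adjusted p = 4.75e-11) and Mcm7 to 66.2% (−0.59 ± 0.036, adjusted p = 1.75e-09). The other subunits moved the opposite way. Mcm3 read 14000, 13386 and 13585 against 17966, 18104 and 17939, a rise of 0.40 ± 0.030 (adjusted p = 2.07e-08). Mcm4 and Mcm2 rose by 0.18 and 0.15. Mcm5 read 15379, 15216 and 15674 against 16428, 16689 and 16455, a rise of 0.099 ± 0.029, and was not called with upper-quartile scaling (adjusted p = 0.071, the highest of 1.76e-07 to 0.071 over the alternatives). The Mcm3 to Mcm6 ratio, at −0.136 on the log2 scale in DMSO, reached 1.13 in P3FI-90, a 2.4-fold change. Per kilobase of transcript, levels of the highest and lowest MCM genes lay 1.83-fold apart in DMSO and 3.14-fold in P3FI-90. Mcm7 shares 23.3% of its 50-base windows with other annotated genes, most of all with Gm5487, so its counts may be split between genes.

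**Figure D3:**
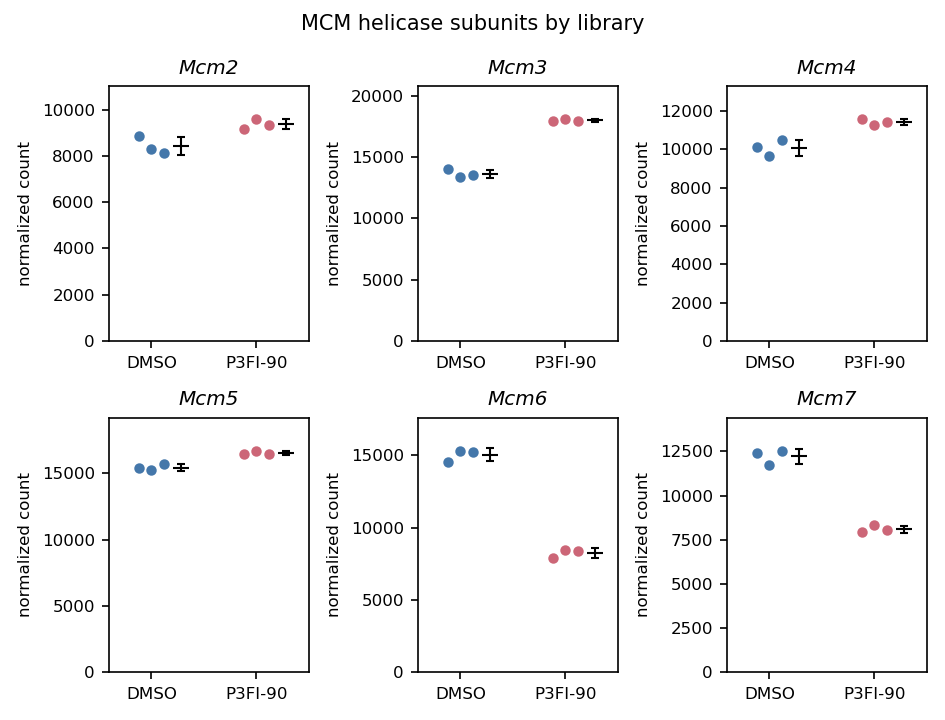
Normalized counts of the 6 MCM genes in each of the 3 DMSO and 3 P3FI-90 libraries, with bars for mean ± SD. Mcm6 and Mcm7 sit lower in P3FI-90 (means 8231 and 8100, against 15011 and 12226), and Mcm2 to Mcm5 sit higher.

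The helicase activators were mixed as well, with 4 genes higher and 2 lower. Cdc45 read 2797, 2835 and 2821 normalized counts in DMSO and 4620, 4664 and 4550 in P3FI-90. Gins3, a subunit of the GINS tetramer, read 1266, 1172 and 1211 against 2078, 2073 and 1898. Both genes rose without overlap of the groups, by 0.71 ± 0.038 (adjusted p = 4.57e-10) and 0.73 ± 0.056 (adjusted p = 2.46e-08). Gins1, another subunit of the same tetramer, read 961, 933 and 869 against 507, 470 and 543. It fell to 55.0% (−0.86 ± 0.081, adjusted p = 2.23e-07), and the Gins3 to Gins1 ratio rose 3.01-fold. Mcm10 and Gins4 rose by 0.28 and 0.19. Gins2 read 2415, 2245 and 2304 against 2344, 1832 and 1665, and its groups overlapped. It was called lower (−0.25 ± 0.095, adjusted p = 0.0242), but not by DESeq2 (0.133), and not without DMSO replicate 1 (0.0734), P3FI-90 replicate 2 (0.0838) or P3FI-90 replicate 3 (0.11). Over the alternatives its adjusted p ran from 8.61e-05 to 0.706. Gins2 overlaps Gse1 on the opposite strand over 67.3% of its exon bases, and Gse1 had a log2 fold change of 1.81.

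Cdc7, the kinase subunit of DDK that fires origins, read 2487, 2566 and 2460 normalized counts in DMSO and 4132, 3965 and 4052 in P3FI-90. Its groups lay far apart, and it rose 1.62-fold (0.69 ± 0.042, adjusted p = 1.9e-09). Dbf4, the regulatory subunit, read 7366, 7816 and 7312 against 7676, 7586 and 7689. Those groups overlapped, with a log2 fold change of 0.029 (95% interval −0.040 to 0.099, adjusted p = 0.46).

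Polymerase alpha-primase, which lays the first primer of each fragment, had 3 genes higher and 1 not called. Pola1, its catalytic subunit, read 2739, 3078 and 2784 normalized counts in DMSO and 4181, 4496 and 4504 in P3FI-90. Prim1, the catalytic primase subunit, read 2370, 2267 and 2292 against 3051, 3284 and 3322. For both genes every P3FI-90 library lay above every DMSO library, with rises of 0.62 ± 0.051 (adjusted p = 5.64e-08) and 0.48 ± 0.049 (adjusted p = 5.23e-07). Pola2, the accessory subunit, read 4766, 4678 and 4860 against 5655, 5558 and 5445 and rose by 0.22 ± 0.035 (adjusted p = 4.66e-05). Prim2, the large primase subunit, read 1784, 1933 and 1880 against 1872, 1907 and 1710, with overlapping groups and a log2 fold change of −0.027 (95% interval −0.137 to 0.083).

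Of the polymerase delta and epsilon genes, 3 fell, 1 rose and 1 was not called. Pold2, the accessory subunit of delta, read 4092, 3641 and 3618 normalized counts in DMSO and 1249, 1315 and 1135 in P3FI-90. Its highest P3FI-90 library was below its lowest DMSO library, and the level fell to 32.6% (−1.62 ± 0.066, adjusted p = 2.48e-11). Pole2, the accessory subunit of epsilon, read 1610, 1678 and 1565 against 896, 865 and 759, a log2 fold change of −0.94 ± 0.069 (adjusted p = 1.37e-08). Pole, the catalytic subunit of epsilon, read 4998, 5004 and 5315 against 7212, 7190 and 7131, a rise of 0.49 ± 0.036 (adjusted p = 1.4e-08). Pole and Pole2 thus moved in opposite directions, and the Pole to Pole2 ratio rose 2.71-fold. The other epsilon subunits, Pole3 and Pole4, belong to the second replication list below and rose by 0.50 and 0.86. Pold1, the catalytic subunit of delta, fell by 0.50 on the log2 scale. Pold3 read 2023, 1878 and 1984 against 2099, 2028 and 1978 with overlap, and its log2 fold change was 0.053 (95% interval −0.047 to 0.152).

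Pcna, the sliding clamp, read 18261, 18383 and 17887 normalized counts in DMSO and 9530, 9768 and 9605 in P3FI-90. The groups stood apart, and Pcna fell to 53% (−0.92 ± 0.030, adjusted p = 3.2e-12). It shares 19.1% of its 50-base windows with other annotated genes, most of all with the pseudogene Pcna-ps2. The clamp loader genes did not follow it together. Rfc4 read 2016, 2288 and 2175 against 3440, 3018 and 3184 and rose by 0.57 ± 0.060 (adjusted p = 7.05e-07). Rfc3 rose from 2305, 2357 and 2217 to 3030, 3089 and 2753, by 0.37 ± 0.054 (adjusted p = 2.16e-05). Neither gene's groups overlapped. Rfc5 read 3917, 4218 and 3830 against 3302, 3491 and 3466, a log2 fold change of −0.22 ± 0.046 that was −0.0073 with total-count scaling. Rfc1 read 6794, 6937 and 7061 against 6566, 7101 and 6982. Rfc2 read 4191, 4085 and 3843 against 4143, 4228 and 4009. Rfc1 and Rfc2 overlapped between groups, with log2 fold changes of −0.010 (95% interval −0.084 to 0.064) and 0.031 (−0.052 to 0.114). Rfc4 overlaps Eif4a2 and Rfc5 overlaps Wsb2 on the opposite strand, over 12.7% and 10.7% of exon bases.

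The single-strand binding complex RPA had 2 genes lower and 1 not called. Rpa1, the large subunit, read 9799, 10433 and 9929 normalized counts in DMSO and 7998, 7944 and 8047 in P3FI-90. Rpa3, the small subunit, read 1530, 1533 and 1520 against 1008, 974 and 1024. For both, every P3FI-90 library was below every DMSO library, with log2 fold changes of −0.33 ± 0.034 (adjusted p = 6.25e-07) and −0.61 ± 0.055 (adjusted p = 1.36e-07). Rpa2, the middle subunit, read 2458, 2512 and 2699 against 2758, 2698 and 2835, and its groups overlapped at one library. Its log2 fold change was 0.11 ± 0.050, with an adjusted p of 0.0531. It was called higher in 7 of the 15 alternatives, among them DESeq2 (0.0328), limma-voom (0.0433) and the fit without DMSO replicate 3 (0.0181), and its adjusted p ran from 3.41e-05 to 0.184. Both genes of Okazaki fragment maturation fell. Lig1, the ligase that joins fragments, read 8168, 7615 and 8230 against 4054, 4294 and 3934, without overlap, and reached 51.2% of DMSO (−0.97 ± 0.043, adjusted p = 6.37e-11). Fen1, the flap endonuclease, read 3533, 3111 and 3176 against 2775, 2807 and 2879. It stood at −0.22 ± 0.052 (adjusted p = 0.00175) and at −0.0011 with total-count scaling. Gm10143 covers 78.8% of its exon bases on the opposite strand.

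Deoxynucleotide supply held the largest fall of the 53. Rrm2, the small subunit of ribonucleotide reductase that is made in S phase, read 10782, 11216 and 11338 normalized counts in DMSO and 2780, 2900 and 2905 in P3FI-90. Its libraries formed separate groups, and the level fell to 25.8% (−1.96 ± 0.037, adjusted p = 1.79e-14), rank 216 of the 12288 genes from the lowest fold change. Tk1, the S-phase thymidine kinase, read 10395, 10084 and 10720 against 3595, 3494 and 3481. It fell to 33.9% (−1.56 ± 0.036, adjusted p = 1.12e-13). The large subunit Rrm1 changed less, from 13242, 13893 and 13291 to 11950, 12205 and 11575 (−0.18 ± 0.034, adjusted p = 0.000252), and stood at 0.036 with total-count scaling. Rrm2b, the small subunit under p53 control, read 1211, 1396 and 1340 against 1550, 1693 and 1574, without overlap, and was higher by 0.29 ± 0.063 (adjusted p = 0.00081). Tyms, thymidylate synthase, read 3985, 3920 and 3832 against 4979, 4955 and 4926 and rose by 0.34 ± 0.035 (adjusted p = 5.75e-07). The Rrm2b to Rrm2 ratio rose 4.74-fold, and Rrm1 to Rrm2 rose 3.43-fold. Rrm2b shares 10.7% of its 50-base windows with other annotated genes, most of all with Gm49085.

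**Figure D4:**
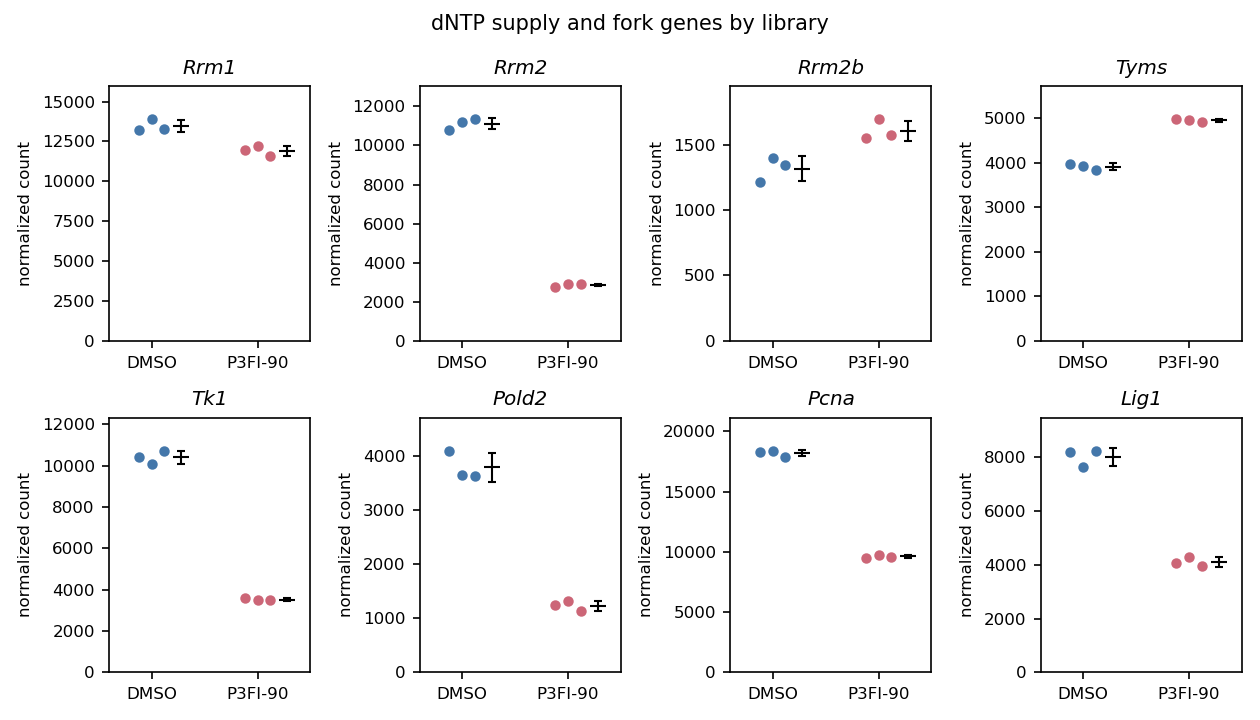
Normalized counts of 5 deoxynucleotide supply genes and of Pold2, Pcna and Lig1 in each library, with bars for mean ± SD over 3 libraries. Rrm2 and Tk1 drop from means of 11112 and 10400 to 2861 and 3523, and Tyms and Rrm2b sit slightly higher in P3FI-90.

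Both chromatin assembly genes, Chaf1a and Chaf1b of the CAF-1 complex that deposits histones behind the fork, were higher. Chaf1b read 2527, 2345 and 2496 normalized counts in DMSO and 3359, 3482 and 3210 in P3FI-90, and Chaf1a read 7446, 7589 and 7722 against 9252, 9060 and 9406. The groups of both stood apart, with rises of 0.45 ± 0.049 and 0.28 ± 0.033 (adjusted p = 1.18e-06 and 2.1e-06). Ubxn6, with a log2 fold change of −1.04, covers 52.5% of the exon bases of Chaf1a on the opposite strand. Of the E2F activators, E2f1 read 1878, 1705 and 1770 against 2907, 2913 and 2935 and rose 1.64-fold (0.71 ± 0.051, adjusted p = 1.08e-08). Its groups did not overlap. E2f3 read 1636, 1654 and 1551 against 1742, 1764 and 1857, a rise of 0.15 ± 0.051 (adjusted p = 0.0168) that was not called with upper-quartile scaling (adjusted p = 0.0645), without DMSO replicate 3 (0.0841) or without P3FI-90 replicate 3 (0.0909, the highest of the alternatives, with 1.55e-05 the lowest). E2f2 read 846, 648 and 787 against 632, 676 and 725 with overlap, and −0.17 (95% interval −0.361 to 0.023, adjusted p = 0.129). Without DMSO replicate 2 it was called lower, at −0.275 (adjusted p = 0.00935, the lowest of the alternatives, with 0.679 the highest).

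Levels were compared between genes as reads per kilobase of the longest coding transcript, scaled for library size (RPKM). In DMSO, Pcna stood highest at 341, followed by Tk1 at 206, Rrm2 at 144, Mcm5 at 130 and Mcm3 at 128. The lowest were E2f2 at 4.57, Rrm2b at 8.23 and E2f3 at 9.03. The spread of the origin recognition complex levels widened from 4.25-fold to 12.3-fold between its highest and lowest gene, and that of RPA narrowed from 1.62-fold to 1.05-fold.

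**Figure D5:**
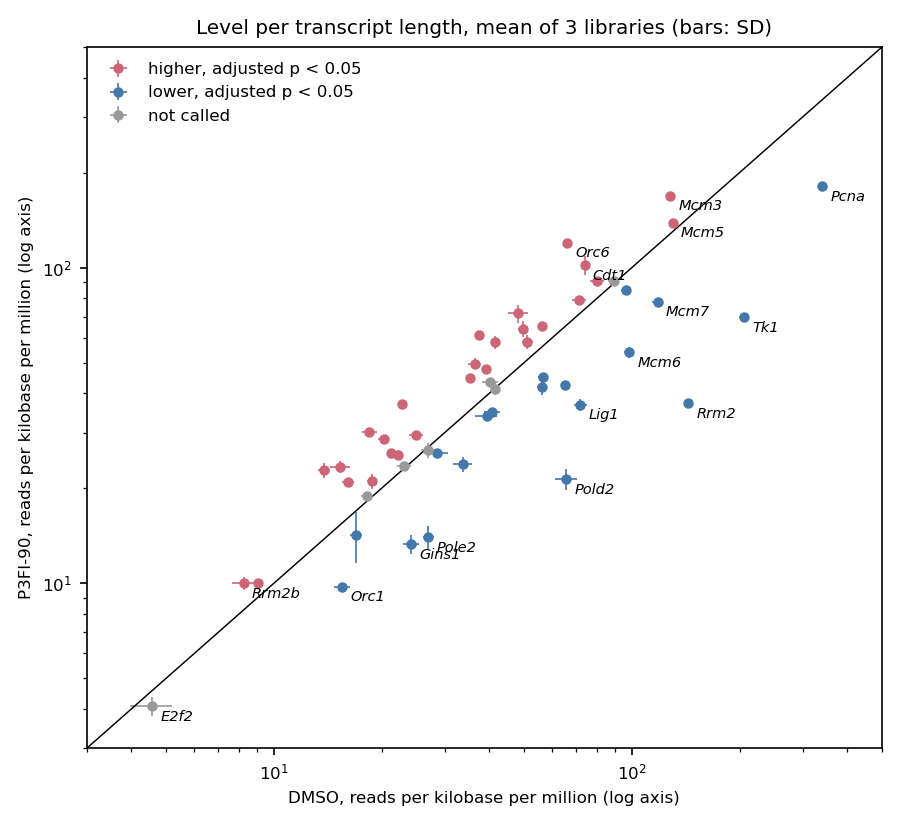
Level per kilobase of transcript, scaled for library size, in P3FI-90 (vertical) against DMSO (horizontal) on log axes, as means of 3 libraries with SD bars, for the 53 genes. Points below the diagonal are lower in P3FI-90, among them Pcna, Tk1, Rrm2, Pold2 and Lig1, and Mcm3 and Orc6 lie above it.

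A second list of 56 further replication genes, all tested, was split in direction as well. Of these, 23 rose (41.1%), 27 fell (48.2%) and 6 were not called, beside 39.9% and 39.4% of all genes called higher and lower. The median log2 fold change was −0.055. Falls of more than 1 were called for 5, the RNase H2 subunits Rnaseh2c (−1.97 ± 0.073) and Rnaseh2a (−1.59 ± 0.052), the nuclease-helicase Dna2 (−1.17 ± 0.111), the uracil glycosylase Ung (−1.12 ± 0.089) and the dUTPase Dut (−1.10 ± 0.036). Rises of more than 1 were also called for 5. Either count is 8.93% of the 56, beside 10.6% of all genes for falls and 12.7% for rises. The rises were those of Atad5, which unloads the clamp (1.304 ± 0.041), and Dtl, which targets CDT1 for degradation (1.27 ± 0.042). The others were the retinoblastoma gene Rb1 (1.23 ± 0.085), Donson (1.14 ± 0.052) and Ticrr (1.09 ± 0.048). Beside Rrm2b, a list of 25 p53 target genes had 22 tested, of which 12 were higher, 6 lower and 4 not called. The shares called higher and lower were 54.5% and 27.3%, beside 39.9% and 39.4% of all genes. Rises of more than 1 were called for Mdm2 (1.45), Plk3 (1.42) and Trp53inp1 (1.20), 13.6% of those tested. A fall of more than 1 was called for Phlda3 (−1.09), 4.55% of those tested. Below that size, the largest rises called were those of Sesn2 (0.85) and Cdkn1a (0.83), and the largest falls those of Perp (−0.67) and Ei24 (−0.53). The share called was 89.3% of the second replication list and 81.8% of the p53 targets, beside 79.3% of all genes.

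Genes called higher and lower differed in their median transcript length. The median longest transcript was 3494 bases in the 27 genes called higher, 2962 in the 19 called lower and 3069 in the 7 not called. Over all genes the same medians were 3944.5, 2983.5 and 3239 bases. Across genes, which are not independent replicates, Spearman's rho of length with log2 fold change was 0.18 over the 53 and 0.23 over 12263 genes with a length, and that of GC content was −0.17 and −0.13. The part of length in the differences was not tested. Orc1 overlaps Gm12743 and Rfc2 overlaps Lat2 on the opposite strand, over 10.8% and 15.1% of exon bases. Leaving out the genes with more than 10% of exon bases or 50-base windows shared with another gene left 42, of which 23 were higher, 13 lower and 6 not called.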

How the data were processed

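The authors deposited a table of raw counts per gene for 6 libraries. The submitters' processing notes name CASAVA, HISAT2 and StringTie and the build GRCm39. Tool versions, the annotation and the strandedness of the counting are not given in the sources used here, so reads of a gene and of an overlapping gene on the other strand may not be separated. The members and lists were chosen with earlier results of these data known. The 296 rows without a gene name were left out (0.483 to 0.556% of counts). Genes were filtered with filterByExpr, scaled by TMM and tested with the quasi-likelihood F-test of edgeR 4.0.16 in R 4.3.3 on all named genes, with Benjamini-Hochberg adjustment over all 12288 and a threshold of 0.05. The biological coefficient of variation was 0.0648. No batch was labelled. Per-library values were given for up to 3 genes of smallest p in each role and for genes not called. They were also given for genes against their role's direction and for Mcm5, Rfc5 and Rrm1. Of the second replication list, up to 5 rises and 5 falls were given as log2 fold changes only. Alternatives were other scalings and filters, DESeq2 1.42.0, limma 3.58.1, a replicate block and leaving out each library. Lengths and overlaps came from GENCODE M21, promoters from RefSeq. Intervals are 1.96 standard errors wide on each side.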

Additional observations from a re-analysis of the deposited data

How the results depend on the processing

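Of the 46 called genes, 39 kept their direction and call in all 15 alternatives. The number called higher was 26 to 27 and the number called lower 17 to 19 when a library was left out. Falls of more than 1 numbered 3 to 4, the median log2 fold change was 0.0939 to 0.127, and the second list had 21 to 23 higher and 26 to 28 lower genes. With total counts, the median rose to 0.326, and Orc3 (0.0717), Prim2 (0.187), Rfc1 (0.204), Rrm1 (0.0361) and E2f2 (0.0454) changed sign. The calls of Orc3, Rrm1, Gins2 (−0.0397), Rfc5 (−0.00729) and Fen1 (−0.00107) were lost. Under that scaling Prim2, Rfc1, Dbf4, Pold3, Rfc2 and Rpa2 were called higher. That scaling alone shifts all genes up by 0.21. With upper quartiles the median was 0.0738, Dbf4 (−0.00932) and Rfc2 (−0.00759) changed sign, and the calls of Mcm5 (0.061) and E2f3 (0.109) were lost. With at least 10 counts in every library Rfc1 changed sign (0.00855) and the call of Orc3 (−0.124) was lost. When a library was left out, 3 uncalled genes near 0 ranged across it: Rfc1 from −0.0355 to 0.0216 (highest without P3FI-90 replicate 1), Rfc2 from −0.00832 (without DMSO replicate 3) to 0.0551, and Prim2 from −0.062 to 0.0145 (highest without P3FI-90 replicate 3), and the cause was not tested. The deviations of equally numbered libraries correlated by −0.0477, −0.0506 and −0.0318, so little variation was shared by replicate number. Whether the numbers pair libraries is not given in the labels. Under the replicate block the median was 0.113, and the calls stood at 27 higher and 19 lower, the same for each of the 53 genes. Standard errors on the log2 scale were larger at lower counts, 0.030 for Pcna (DMSO mean 18177) and 0.098 for E2f2 (DMSO mean 760.3).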
